A study of Mus musculus with 10 samples.

Results

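Cells that switch on stress and growth-factor signalling also make the proteins that switch it off. The genes described here encode such proteins: the MAP kinase phosphatases Dusp1, Dusp2 and Dusp6, the mRNA decay proteins Zfp36, Btg1, Btg2 and Tob1, the receptor tyrosine kinase signalling inhibitor Spry2, and the immediate early genes Ier2 and Ier5. All probe sets whose gene symbol in the platform annotation was one of these 10 names were taken, whatever their values. The names themselves were chosen with earlier results of these data known. This gave 10 probe sets of 12488, for 8 of the 10 genes, because Spry2 and Ier5 had no probe set under that annotation. Of the 10 probe sets, 8 passed the filter on low signal and were tested, 1 for each gene. The second probe sets of Dusp6 and Tob1 were below the filter, with signals of 0.9 to 16.4 and 0.3 to 7.8.

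The signals came from 10 one-colour Affymetrix arrays of mouse cochlear RNA, each a pool of 8 female mice aged 10 weeks, so that a replicate is a pool and the spread between single mice was not measured. Noise-exposed B6.CAST mice (2 arrays) were set against sham-exposed B6.CAST control mice (2 arrays), and noise-exposed 129X1/SvJ mice (3 arrays) against sham-exposed 129X1/SvJ control mice (3 arrays). The noise was an octave band at 10 kHz and 105 dB SPL given for 1 h, and tissue was taken 6 h after it ended, while controls sat in the same kind of chamber without noise. B6.CAST is a C57BL/6 background strain carrying a CAST-derived chromosome segment, and 129X1/SvJ is an inbred strain that the labels call resistant to noise. Inner ear genes were present as the tissue label requires: Coch, the main extracellular protein of the spiral ligament, had signals of 12604 to 20801.2, and the connexin gene Gjb2 had 9074.9 to 24581.1. The hair cell transcription factor gene Atoh1 had only 3.8 to 15, while the hair cell myosin gene Myo7a had 255.5 to 372.2.

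The first 129X1/SvJ noise array stood apart: its log2 values correlated with those of the remaining arrays at 0.947 on average, where every other array averaged 0.965 to 0.972. Gapdh control probe sets, whose 3′ over 5′ signal rises as RNA degrades, gave a ratio of 6.94 on the first B6.CAST noise array, 29.2 on the second 129X1/SvJ control array and 0.790 to 1.40 elsewhere. Where leaving out the array that stood apart moved a result of the feedback genes by over 1.5 times or turned it, the value without it is given. The arrays carried RNA from many cell types, in which fewer cells of a type and less RNA per cell cannot be told apart.

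MAP kinases such as ERK, p38 and JNK carry signals from growth factors, cytokines and stress to the nucleus and are active only while phosphorylated. Dual-specificity phosphatases remove those phosphates: Dusp1 and Dusp2 are nuclear enzymes induced by the pathways they shut off, and Dusp6 is a cytoplasmic enzyme selective for ERK. Zfp36, also called tristetraprolin, binds AU-rich elements in the tails of cytokine and early response mRNAs and brings in the CCR4-NOT deadenylase complex. Btg1, Btg2 and Tob1 share a domain that binds the deadenylases of that complex and restrain cell growth. Ier2 is a nuclear protein whose gene is switched on within minutes of stimulation, as an early gene of the same signals. In the cochlea, noise is known to activate MAP kinases and early response genes.

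Dusp1, Zfp36 and Btg2 are shown by sequence because their start regions hold the better known elements for signal-driven transcription found among these genes. The sequences are from RefSeq on GRCm38.p6, the 250 bases before the annotated start, read 5′ to 3′ on the gene's strand. Capitals mark the cAMP response element (CRE) TGACGTCA and its half-site TGACG, the TATA variant CATAAA, and the CArG box, the element bound by serum response factor.
Dusp1 (chr17:26508473-26508722, minus strand): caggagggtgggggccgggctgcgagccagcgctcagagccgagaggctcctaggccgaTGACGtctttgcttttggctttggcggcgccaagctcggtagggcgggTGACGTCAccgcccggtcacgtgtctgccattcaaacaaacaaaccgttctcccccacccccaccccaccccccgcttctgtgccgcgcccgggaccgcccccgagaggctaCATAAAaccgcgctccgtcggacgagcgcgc
Zfp36 (chr7:28379229-28379478, minus strand): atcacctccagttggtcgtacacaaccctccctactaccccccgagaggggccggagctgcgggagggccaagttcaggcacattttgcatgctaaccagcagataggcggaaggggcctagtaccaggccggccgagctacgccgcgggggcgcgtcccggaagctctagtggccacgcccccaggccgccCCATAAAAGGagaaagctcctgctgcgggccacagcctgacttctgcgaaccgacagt
Btg2 (chr1:134079156-134079405, minus strand): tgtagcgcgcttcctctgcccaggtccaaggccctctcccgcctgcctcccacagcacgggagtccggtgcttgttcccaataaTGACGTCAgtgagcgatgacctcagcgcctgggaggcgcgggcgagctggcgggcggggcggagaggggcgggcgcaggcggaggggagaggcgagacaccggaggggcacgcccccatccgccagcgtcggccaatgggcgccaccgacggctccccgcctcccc

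Windows of 250 bases before the start and 50 from it on were available for 9 of the 10 genes. Counting the start as base 0, Dusp1 held a full CRE from -143 to -136, a further half-site from -191 to -187 and the CATAAA motif from -31 to -26. Btg2 held a full CRE from -166 to -159. Full CREs were thus in 2 of 9 windows, and in 1.79% of all 32851 mouse promoter windows in the same table, searched on both strands. The half-site, which is part of every full CRE, was in 5 of 9 windows against 20.8% of all. Zfp36 alone held a CArG box, from -58 to -49, overlapping a CATAAA motif from -57 to -52, where 1.63% of all windows held a CArG box and 6.53% held CATAAA on the sense strand. The TATA motif TATAAA was found in Btg1 and Tob1, 2 of 9 windows, against 8.32% of all windows on the sense strand. The AP-1 site TGANTCA was in 0 of 9 windows (7.81% of all) and the glucocorticoid response element in 0 of 9 (0.475% of all), on both strands. These matches describe letters in the windows only.

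**Figure D1:**
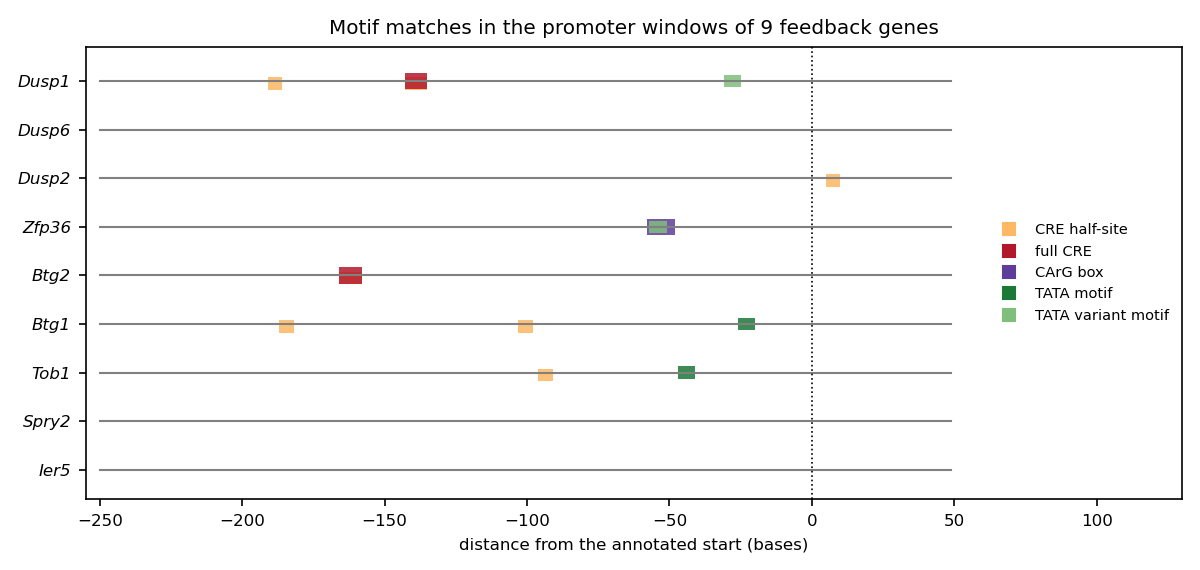
Positions of motif matches in the promoter windows of 9 genes, with the distance from the annotated start in bases on the x axis and 1 gene per row. Full CREs lie in the Dusp1 and Btg2 windows, and a CArG box in the Zfp36 window.

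Dusp1 was the 1 gene of the 8 that passed the test with noise. It had signals of 5323.3 and 3822.1 on the B6.CAST noise arrays, against 2434.5 and 2387.4 on the B6.CAST control arrays. In 129X1/SvJ the noise arrays had 5385.9, 5604.6 and 6027.4, against 3549.2, 3471.9 and 2813.4 on the control arrays. Every noise array was above every control array of its own strain. The group means were 4573 ± 1062 and 2411 ± 33.3 in B6.CAST noise and control (SD, n = 2 each), and 5673 ± 326 and 3278 ± 404 in 129X1/SvJ noise and control (SD, n = 3 each). On the log2(signal + 16) scale used for all tests, Dusp1 rose by 0.80 ± 0.14 in 129X1/SvJ (SE, fold 1.74, limma adjusted p = 0.0276, 95% interval 0.50 to 1.10). In B6.CAST the change was 0.89 ± 0.17 (fold 1.85, interval 0.51 to 1.26), with a limma adjusted p of 0.288, so it did not pass. Over the mean of both strains Dusp1 rose by 0.84 ± 0.11 (limma adjusted p = 0.00471).

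The noise effects on Dusp1 in the strains differed by 0.08 ± 0.22 (B6.CAST minus 129X1/SvJ, limma adjusted p = 0.997), with an interval of -0.40 to 0.57. The single-strain call in 129X1/SvJ was lost when any of the 6 arrays of that strain was left out, with limma adjusted p from 0.0651 to 0.139, and also without the second B6.CAST control array (0.0505). Its change stayed between 0.69 and 0.87 in those fits, and it was 0.82 without the array that stood apart. The call over both strains was kept with each of the 10 arrays left out, and was lost (adjusted p = 0.101) without both arrays of high Gapdh ratio.

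Dusp6, the ERK phosphatase, had signals of 2369 and 1548.2 on the B6.CAST noise arrays, against 998.6 and 1488.4 on the B6.CAST control arrays. In 129X1/SvJ it had 1494.7, 1779.2 and 2098.8 with noise, against 1561.1, 1291.3 and 939.6 in controls. The B6.CAST groups did not overlap. The 129X1/SvJ groups overlapped on the deposited scale and not after normalization. The changes were 0.63 ± 0.28 in B6.CAST (limma adjusted p = 0.9999) and 0.55 ± 0.23 in 129X1/SvJ (limma adjusted p = 0.411), and neither passed. The noise effects on Dusp6 differed by 0.08 ± 0.36 between strains, with an interval of -0.71 to 0.87, and by -0.03 without the first 129X1/SvJ noise array.

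Dusp2, the phosphatase best known from activated lymphocytes and other leukocytes, did not follow Dusp1. It had signals of 128.4 and 122.8 with noise in B6.CAST, against 200 and 142.2 in controls. In 129X1/SvJ it had 493.8, 241.9 and 313.9 with noise, against 215.2, 251.2 and 476.8 in controls. The B6.CAST noise arrays were the lowest of all, and the 129X1/SvJ groups overlapped. The changes were -0.37 ± 0.39 in B6.CAST and 0.13 ± 0.32 in 129X1/SvJ (limma adjusted p = 0.892), and the 129X1/SvJ estimate was -0.15 without the first 129X1/SvJ noise array.

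Markers of blood cells also varied between the arrays, and not all lists in the same way. The summed signal of the neutrophil markers (9 of 10 listed genes on the table, none at 0) was 2366.3 and 2638.5 on the B6.CAST noise arrays, against 19710.6 and 5997.2 on the B6.CAST control arrays. In 129X1/SvJ it was 37433.4, 12706.4 and 15826.6 with noise, against 3558.4, 12074.1 and 21361.9 in controls. The 2 arrays highest in Dusp2, the first noise and the third control array of 129X1/SvJ, were also the highest of that strain in this sum. They were so too in the lymphocyte and erythroid sums below, though not in the macrophage sum. Lymphocyte markers (7 of 9 on the table) summed to 550.2 and 668.1 with noise in B6.CAST, against 1028.6 and 657 in controls, and to 1751.4, 858.8 and 733.4 with noise in 129X1/SvJ, against 544.4, 841.3 and 1060.1 in controls. Erythroid markers (5 of 7 on the table) summed to 7088.8 and 10306.7 with noise in B6.CAST, against 24631.1 and 9879.2 in controls, and to 36054.9, 22787.6 and 22159 with noise in 129X1/SvJ, against 12931.3, 18305.8 and 32458.9 in controls. Like the neutrophil list, this list was highest on noise array 1 of 129X1/SvJ and lowest on noise array 1 of B6.CAST. Macrophage markers (9 of 9 on the table) ran otherwise, with 6232.1 and 7413.9 with noise in B6.CAST against 7867.4 and 6579.2 in controls, and 6759.9, 5535.9 and 5299 with noise in 129X1/SvJ against 3290.3, 5272.4 and 5390.3 in controls. The part of these cells in the Dusp2 values was not tested.

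**Figure D2:**
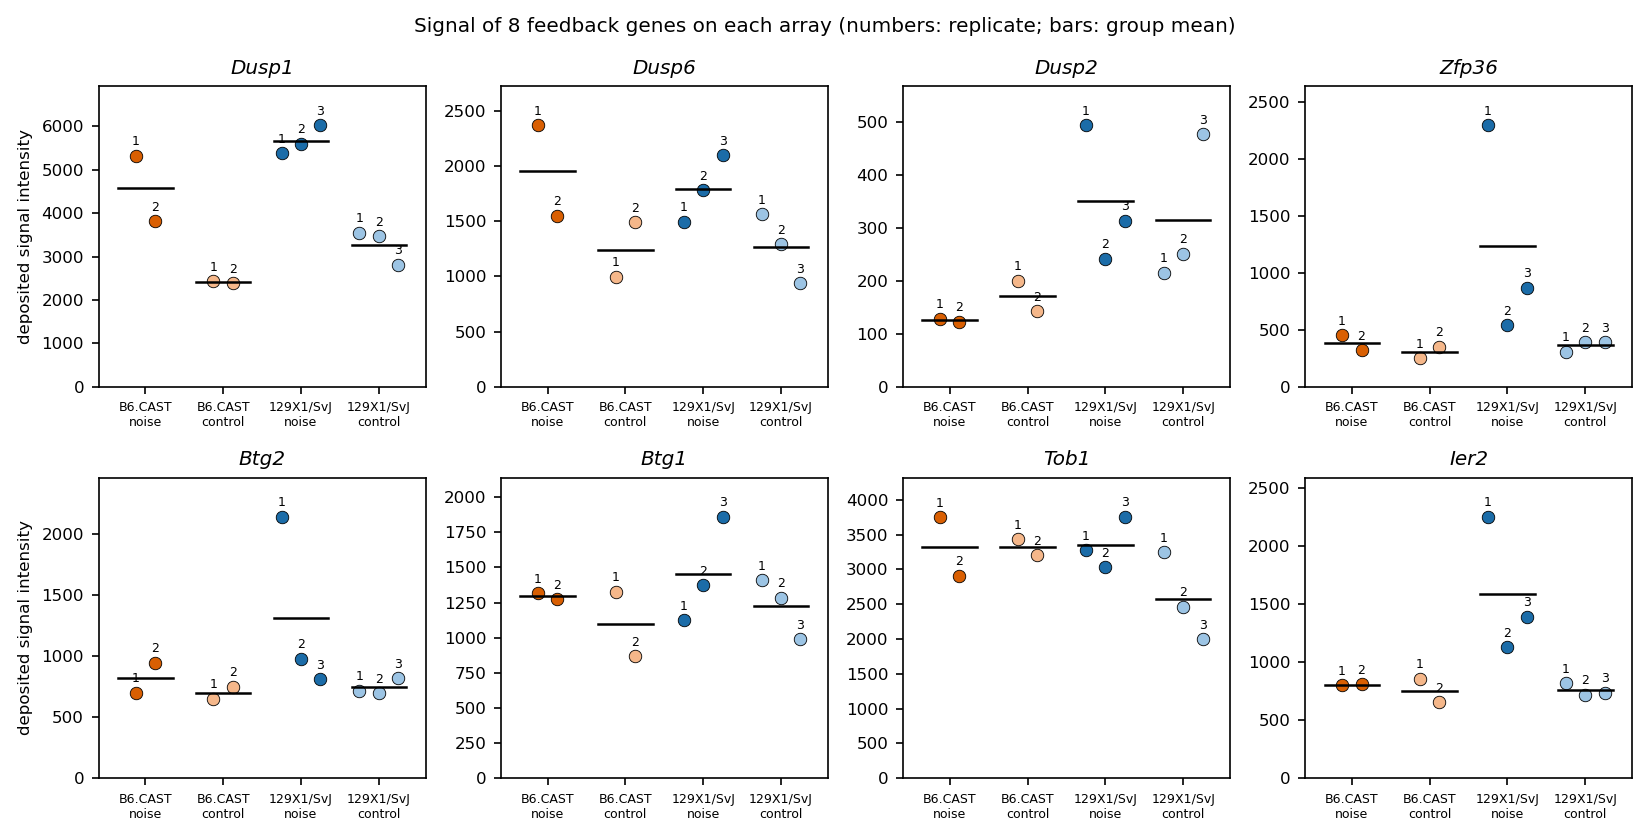
Deposited signal intensity (linear y axis from 0) of the 8 tested genes on each array, grouped by strain and treatment, with the replicate number beside each point and a bar at the group mean. Dusp1 separates noise from control in both strains, and the first 129X1/SvJ noise array is the highest for Zfp36, Btg2 and Ier2.

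Zfp36, the AU-rich element binding protein, was higher with noise in 129X1/SvJ but by very unequal amounts. It had signals of 454.6 and 324.3 with noise in B6.CAST, against 252.2 and 351.8 in controls. In 129X1/SvJ it had 2299.4, 540.9 and 872.2 with noise, against 309.3, 394 and 392.3 in controls. The B6.CAST groups overlapped, and in 129X1/SvJ all 3 noise arrays lay above all 3 control arrays. The 3 noise arrays stood at 6.30, 1.48 and 2.39 times the mean of the 129X1/SvJ controls. The change was 0.35 ± 0.52 in B6.CAST and 1.46 ± 0.42 in 129X1/SvJ (limma adjusted p = 0.244), and it was 0.88 ± 0.27 in 129X1/SvJ without the first noise array (adjusted p = 0.395). The probe set is of the kind that may also match related sequences.

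Btg2, an antiproliferative deadenylase cofactor, showed the same array in front. It had 699 and 945.3 with noise in B6.CAST, against 650.3 and 747.6 in controls. In 129X1/SvJ it had 2137.6, 978.5 and 810.5 with noise, against 716.2, 695.1 and 818 in controls. The groups overlapped in both strains. The change was 0.23 ± 0.37 in B6.CAST and 0.69 ± 0.30 in 129X1/SvJ (limma adjusted p = 0.428), and 0.26 ± 0.18 in 129X1/SvJ without the first noise array (adjusted p = 0.821).

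Btg1 and Tob1, its relatives, did not pass the test in either strain. Btg1 had 1314.7 and 1275 with noise in B6.CAST, against 1326.5 and 867.5 in controls, and 1122.9, 1373.7 and 1860.3 with noise in 129X1/SvJ, against 1409.9, 1285.9 and 988.9 in controls. Its groups overlapped in both strains, with changes of 0.25 ± 0.26 in B6.CAST and 0.26 ± 0.21 in 129X1/SvJ (limma adjusted p = 0.639). Tob1 had 3746.5 and 2906.7 with noise in B6.CAST, against 3429.6 and 3201.8 in controls, and 3274.9, 3031.8 and 3755.6 with noise in 129X1/SvJ, against 3246.8, 2465.3 and 1994.4 in controls. Its groups also overlapped in both strains. The first 129X1/SvJ noise array was the lowest of the 3 for Btg1 and the second highest for Tob1. The changes of Tob1 were 0.0042 ± 0.21 in B6.CAST and 0.45 ± 0.18 in 129X1/SvJ (limma adjusted p = 0.393).

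Ier2, the early response gene, was the 1 gene of the 8 whose noise effect differed between strains at an unadjusted p under 0.05, and this was lost on adjustment. It had signals of 801.2 and 809.4 with noise in B6.CAST, against 855.2 and 654.4 in controls. In 129X1/SvJ it had 2249, 1125.7 and 1391.2 with noise, against 818.4, 717.6 and 735.5 in controls. The B6.CAST groups overlapped, and every 129X1/SvJ noise array was above every control array. The change was 0.10 ± 0.28 in B6.CAST and 1.02 ± 0.23 in 129X1/SvJ (fold 2.03, limma adjusted p = 0.109), which did not pass, and it was 0.73 ± 0.16 without the first noise array (adjusted p = 0.146). The noise effects on Ier2 differed by -0.92 ± 0.36 (interval -1.71 to -0.12, limma adjusted p = 0.997).

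The genes were chosen with earlier results of these data known, so the shares set beside them here and below are a description. Over the 8 tested genes, 1 passed the test in 129X1/SvJ, against 0.506% of the 8695 probe sets tested on the whole table. An unadjusted p under 0.05 was reached by 6 of 8 genes there, where 11.5% of all probe sets reached it. The estimates of 8 of 8 were above 0, where 45% of all were, and the median change was 0.62 against -0.04 for all probe sets. Without the first 129X1/SvJ noise array, 0 of 8 passed in limma, 5 had an unadjusted p under 0.05, 7 were above 0 and the median change was 0.56. The genes whose 129X1/SvJ noise arrays all lay above the controls on the normalized log2 scale were Dusp1, Dusp6, Zfp36 and Ier2, which makes 4 of 8 beside 6.35% of all probe sets. For Dusp6 the lowest noise array was at 10.61 and the highest control at 10.60 on that scale, and the deposited signals overlapped.

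In B6.CAST, 0 of 8 genes passed in limma, against 0.046% of all probe sets, and 2 of 8 (Dusp1 and Dusp6) had an unadjusted p under 0.05, against 2.1%. Of the 8 estimates 7 were above 0 (51.1% of all), with a median of 0.24 against 0.0065 for all. Dusp1 and Dusp6 had both noise arrays above both controls, beside 15.8% of all probe sets, and Dusp2 had both below, beside 13.8%. The first B6.CAST noise array, which had a high Gapdh ratio, was the higher of the 2 for 6 genes, Dusp1 and Dusp6 among them. With 1 array left out at a time, the B6.CAST change ran from 0.70 to 1.08 for Dusp1 and from 0.34 to 0.92 for Dusp6. Over the mean of both strains 1 of 8 passed (0.46% of all), and 4 of 8 had an unadjusted p under 0.05 (7.63% of all). On the normalized scale Dusp1 and Dusp6 had noise arrays above the controls in both strains, Dusp6 by that narrow gap in 129X1/SvJ, which held for 2.69% of all probe sets.

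**Figure D3:**
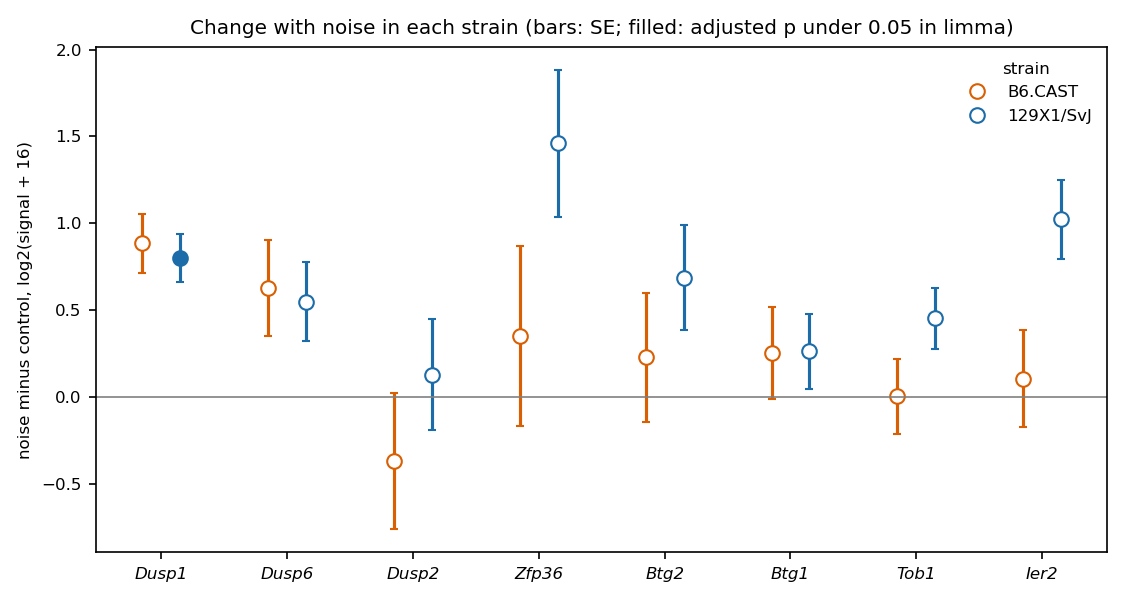
Change with noise on the log2(signal + 16) scale (y axis) for each gene in B6.CAST and 129X1/SvJ, with bars of 1 SE and a filled point where the limma adjusted p was under 0.05. The filled point is Dusp1 in 129X1/SvJ at 0.80, and the strain estimates lie close together for Dusp1, Dusp6 and Btg1.

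The difference between the noise effects in the strains did not pass for any of the 8 genes in limma, nor for any probe set on the table (0 of 8695, 0%). Ier2 had an unadjusted p under 0.05, 1 gene of 8, where 2.97% of all probe sets had one. The estimate for Zfp36 was -1.11 ± 0.67 with an interval of -2.57 to 0.36, and that for Tob1 was -0.45 ± 0.28 with an interval of -1.06 to 0.16. For Btg2 it was -0.46 ± 0.48 and for Dusp2 -0.50 ± 0.51. Without the first 129X1/SvJ noise array these estimates were smaller for Zfp36 (-0.52 ± 0.40), Btg2 (-0.03 ± 0.27) and Dusp2 (-0.23 ± 0.46), and that of Tob1 was -0.46 ± 0.30. The difference for Ier2 was then -0.63 ± 0.24 and still had an unadjusted p under 0.05. With all arrays, the intervals for Zfp36, Tob1, Btg2 and Dusp2 leave room for no difference and for large ones. The interval for Ier2, -1.71 to -0.12, lay below 0 but is not adjusted for the number of probe sets tested.

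The high values in 129X1/SvJ fell on different arrays for different genes. The first noise array was the highest noise array for Dusp2, Zfp36, Btg2 and Ier2, and the third for Dusp1, Dusp6, Btg1 and Tob1. Without the first array, the change with noise in 129X1/SvJ moved by over 1.5 times for Zfp36, Btg2 and Btg1 (to 0.42) and turned sign for Dusp2, while it was 0.82 for Dusp1, 0.66 for Dusp6 and 0.46 for Tob1. Of all 10 arrays, that array held the highest sums of the neutrophil, erythroid, lymphocyte and bone markers (bone 2016.8, against 739.9 to 1712.1 elsewhere) and the lowest sum of the inner ear markers (37649.6, against 41977.9 to 60162.8 elsewhere). The part of these tissues and cells in the results was not tested.

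**Figure D4:**
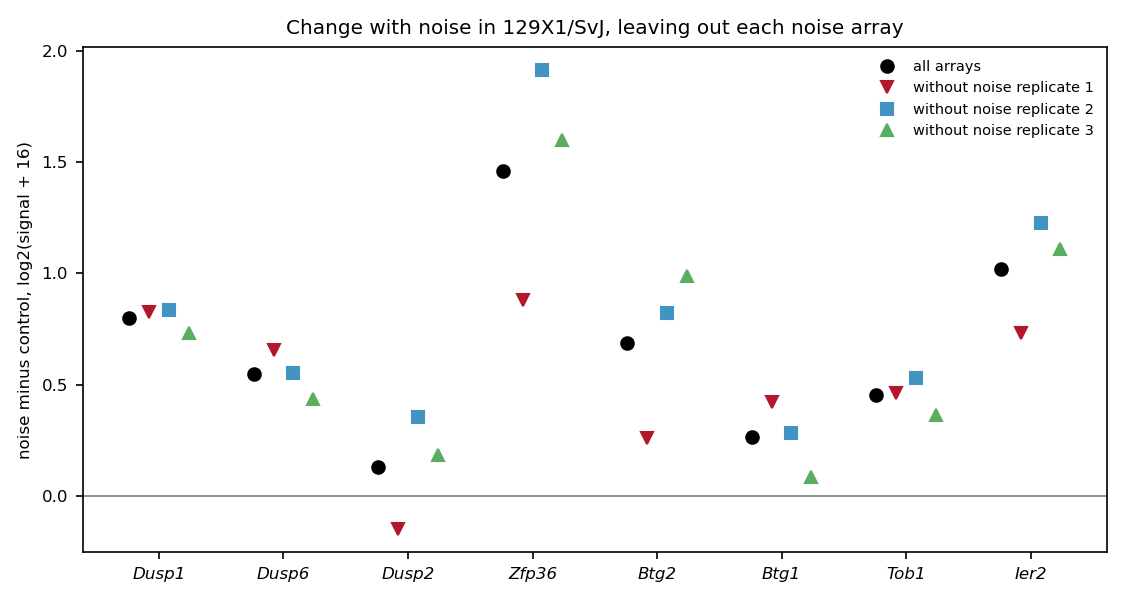
Change with noise in 129X1/SvJ on the log2(signal + 16) scale (y axis) for each gene, with all arrays and with each noise array left out. Without the first noise array, Zfp36 is at 0.88 and Btg2 at 0.26, and Dusp1 stays at 0.82.

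Between strains, B6.CAST was compared with 129X1/SvJ separately in noise-exposed and in control mice. In noise-exposed mice 0 of 8 genes passed in limma, against 1.45% of all probe sets, and 4 of 8 (Dusp1, Dusp2, Zfp36 and Ier2) had an unadjusted p under 0.05, against 10.6%. The same 4 genes had both B6.CAST noise arrays below all 3 of 129X1/SvJ, beside 12.1% of all probe sets. Dusp2 differed by -1.27 ± 0.36 (limma adjusted p = 0.143), Zfp36 by -1.38 ± 0.47 (adjusted p = 0.268) and Ier2 by -0.91 ± 0.26 (adjusted p = 0.141). Without the first 129X1/SvJ noise array these were -1.0, -0.80 and -0.62.

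In control mice 0 of 8 genes passed in limma, against 0.92% of all probe sets, and Dusp1 was the 1 gene with an unadjusted p under 0.05, against 11.1%. Dusp2 joined it when the first 129X1/SvJ noise array, which enters the shared estimate of spread, was left out. Dusp1 differed by -0.43 ± 0.15 between B6.CAST and 129X1/SvJ controls (limma adjusted p = 0.316), and in noise-exposed mice by -0.35 ± 0.15 (adjusted p = 0.457). Dusp1 and Dusp2 had both B6.CAST control arrays below all 3 of 129X1/SvJ, beside 16% of all probe sets. Ier2 controls differed by 0.0059 ± 0.26, with an interval of -0.55 to 0.57.

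Other genes of the same pathways were taken as 6 lists, and the brightest tested probe set stood for each gene. Among other feedback inhibitors of ERK and MAP kinases, 9 of 24 listed genes were tested. With noise, 1 was called higher in 129X1/SvJ and 0 in B6.CAST, beside 0.506% and 0.046% of all probe sets called. Estimates were above 0 for 6 of 9 in 129X1/SvJ and 7 of 9 in B6.CAST. The called gene was Socs3, an inhibitor of cytokine receptor signalling, at 2.07 ± 0.32 in 129X1/SvJ (limma adjusted p = 0.0129). In B6.CAST it was at 1.35 ± 0.39 and did not pass. Its probe set, like that of Zfp36, is of a kind that may also match related sequences. The 129X1/SvJ call was lost without the first noise array of that strain (1.86, limma adjusted p = 0.0554). Without the first or second 129X1/SvJ control array it was also lost (adjusted p up to 0.0622). Leaving out both arrays of high Gapdh ratio also ended it (0.0904). The median change of this list was 0.16 in B6.CAST and 0.19 in 129X1/SvJ. Among the MAP kinases and their upstream kinases and adaptors, 0 of 17 tested genes passed in limma in either strain, with medians of 0.10 in B6.CAST and 0.094 in 129X1/SvJ. The smallest p there in 129X1/SvJ belonged to Map2k3, a p38 activating kinase, at 0.88 ± 0.19 (limma adjusted p = 0.0835), to Map2k6 at -0.71 ± 0.20 and to Mapk8, the JNK1 gene, at 0.45 ± 0.17.

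ERK output genes, the transcription factor and early response genes that ERK signalling switches on, had 10 tested members. Of these, 1 was called higher in B6.CAST (Fos) and 3 in 129X1/SvJ (Fos, Egr1 and Ier3). Of all probe sets, 0.046% and 0.506% were called in these strains. Estimates were above 0 for 8 of 10 in B6.CAST and 9 of 10 in 129X1/SvJ (51.1% and 45% of all probe sets). The medians were 0.56 in B6.CAST and 1.34 in 129X1/SvJ. In B6.CAST, Ier3 was at 1.21 (limma adjusted p = 0.106) and Egr1 at 1.08, and neither passed. Of the mRNAs known in mouse as Zfp36 targets, 5 of 12 were tested. Calls for higher levels with noise numbered 1 in B6.CAST (Ccl2) and 3 in 129X1/SvJ (Ccl2, Cxcl1 and Ier3). Estimates were above 0 for 5 of 5 in B6.CAST and 4 of 5 in 129X1/SvJ. Cxcl1 was at 1.54 in B6.CAST and did not pass there. All 12 were on the table, and those not tested were below the filter on low signal. Control signals of Ccl2 were 6 to 41.5, under the filter level of about 42.9, so it was tested only because of its noise arrays. Those of Cxcl1 were 16.5 to 64.4, on both sides of that level. These counts thus depend on the filter and describe only the genes that passed it. Ier3, an early response gene on both lists, was at 1.87 ± 0.16 in 129X1/SvJ (limma adjusted p = 2.77e-04). Glucocorticoid-induced genes, of which Dusp1 is also known to be one, had 9 tested members, and Cebpd, a transcription factor of the acute phase response, rose in 129X1/SvJ at 1.55 ± 0.20 (limma adjusted p = 0.00335). The 129X1/SvJ calls of Fos, Ier3, Ccl2, Cxcl1 and Cebpd were kept with each of the 10 arrays left out. That of Egr1 was kept in 4 of 10 such fits (adjusted p up to 0.181 in the others), and the B6.CAST calls of Fos and Ccl2 were kept in 2 of 10 each (up to 0.705). Of the alternatives that left out no single array, the call of Egr1 was kept in 4 of 9, and in B6.CAST that of Fos in 5 of 10 and that of Ccl2 in 3 of 10.

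In the mRNA decay list of deadenylases, decapping factors and AU-rich element binding proteins, 0 of 19 tested genes passed in B6.CAST and 1 passed in 129X1/SvJ, with medians of -0.0079 and 0.0098. That gene was Zfp36l2, a close relative of Zfp36 that binds the same elements. It had signals of 1710.5 and 1314.8 with noise in B6.CAST, against 1579.2 and 1405.6 in controls, and 3277.7, 2472.7 and 2781 with noise in 129X1/SvJ, against 1417.7, 1443.6 and 1418.8 in controls. All 129X1/SvJ noise arrays were above every other array. Zfp36l2 rose by 1.01 ± 0.15 in 129X1/SvJ (limma adjusted p = 0.0129) and was at -0.0079 ± 0.19 in B6.CAST. Without the first 129X1/SvJ noise array it was at 0.88 (adjusted p = 0.0434), and the call was lost when any one of the 3 control arrays of that strain was left out (0.0593 to 0.0778), in a fit with no variance trend (0.0550), and when both arrays of high Gapdh ratio were left out (0.0999). The noise effects on Zfp36l2 differed by -1.02 ± 0.24 between strains (limma adjusted p = 0.997).

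**Figure D5:**
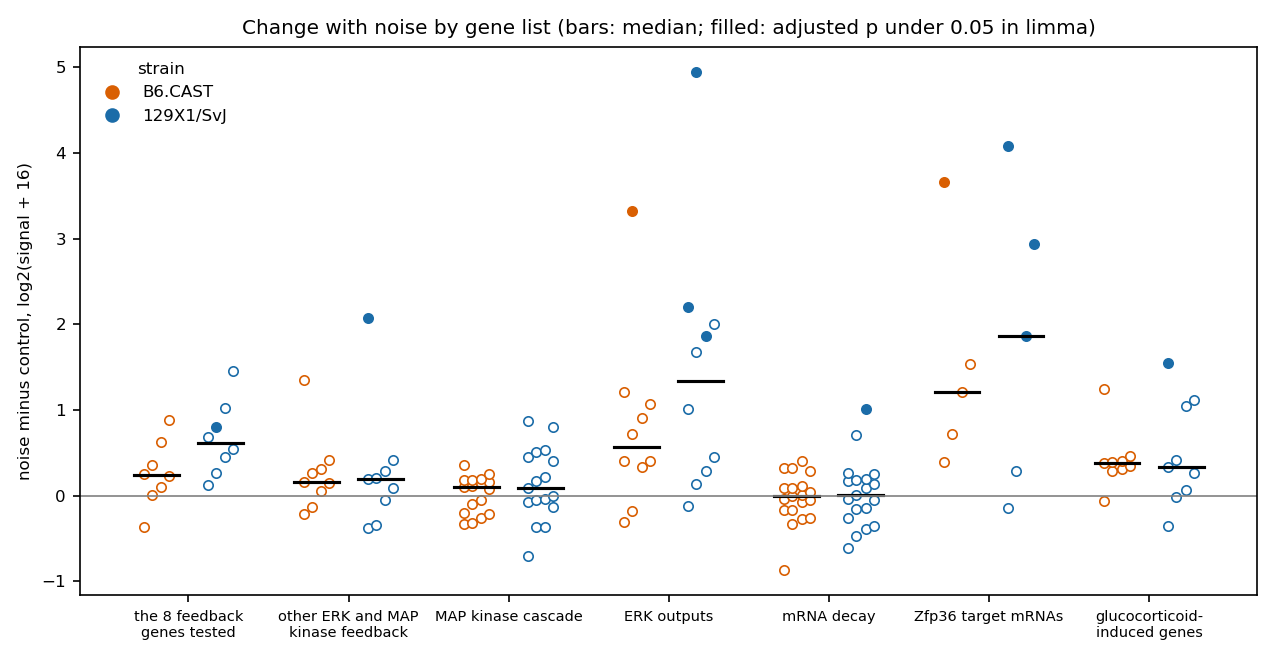
Change with noise on the log2(signal + 16) scale (y axis) for the 8 feedback genes and the tested genes of 6 related lists, in B6.CAST and 129X1/SvJ, with bars at the median and filled points where the limma adjusted p was under 0.05. The medians of the ERK outputs are 0.56 in B6.CAST and 1.34 in 129X1/SvJ, and those of the 8 feedback genes are 0.24 and 0.62.

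The genes whose log2 levels ran most like those of Dusp1 over the 10 arrays, among 6498 candidate genes, were Phlda1, Cebpd, Plat, Krt8 and Irs2. Their Pearson correlations were 0.945, 0.944, 0.943, 0.942 and 0.940, and their Spearman correlations ran from 0.867 to 0.976. With the 2 arrays farthest from the median of Dusp1 left out, the Pearson correlations ran from 0.916 to 0.954. The arrays share the 4 groups, so the noise and strain differences enter these correlations, which are given as a description.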

How the data were processed

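Cochlear RNA was measured on 10 one-colour arrays. The authors deposited linear signal intensities per probe set, with arrays already scaled to a common level (the mean without the lowest and highest 2% is about 500 on each). No source used here names the software, its version or the scaling target. Detection flags were not used. Per the labels, each array carried amplified, biotin-labelled cRNA of a pool of mice. The third noise and control arrays of 129X1/SvJ spell the strain differently in the labels and were kept in it.

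From the intensities, log2(intensity + 16) was computed and quantile normalized. The 66 control probe sets and the 30% of others with the lowest mean were left out, leaving 8695 of 12488 probe sets (mean signal above about 42.9). All 10 arrays entered 1 limma model (limma 3.58.1, R 4.3.3) of 4 group means with a trended variance prior, and adjustment ran over all 8695 (Benjamini-Hochberg, threshold 0.05) in 6 comparisons. Errors of changes are standard errors. P-values measure the spread between pools. The fit was tested on simulated data. Symbols came from the platform annotation, updated through RefSeq on GRCm38.p6: 10855 probe sets had 1 symbol, 396 several and 1237 none. The number of arrays limits the precision, and all intensity columns belonged to the 10 samples.

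The genes, lists and tests were chosen with earlier results of these data known. All probe sets of the listed genes were named, and from each related list the genes past the threshold in a noise comparison, otherwise the 3 with the smallest p in 129X1/SvJ. Likeness to Dusp1 took the 5 highest Pearson correlations. Alternatives covered the scaling, pseudocounts of 1 and 64, no filter, an untrended variance, weighted arrays, a fit to the compared groups alone, each single array left out, both arrays of high Gapdh ratio left out, and the replicate number as a block. Replicate numbers were checked for pairing. Deviations of same-numbered noise and control arrays from their group means correlated at -0.17 in B6.CAST and at -0.15, -0.18 and -0.39 in 129X1/SvJ. Those of different-numbered arrays ran from -0.12 to 0.31 in 129X1/SvJ. These values gave no sign of pairing by number but cannot settle it. Deviations within a group cancel, and with 2 arrays per B6.CAST group every pair gives the same size of correlation.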

Additional observations from a re-analysis of the deposited data

How the results depend on the processing

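Of 112 counts of called feedback genes recomputed under alternatives, 101 kept within 1.5 times the reported count, but most of the 112 were counts of 0 that stayed 0. The reported count of 1 was kept in 9 of 19 alternatives in 129X1/SvJ and in 17 of 18 over both strains. In 129X1/SvJ the count of called genes was 0 without the variance trend, 0 with the replicate number as a block, 0 without both arrays of high Gapdh ratio, and 0 to 1 with each array left out. Over both strains it was 0 without both arrays of high Gapdh ratio, and 0 genes were called in the other comparisons under any alternative. Dusp1 in 129X1/SvJ had adjusted p of 0.127 without the trend, 0.136 with the replicate block and 0.107 without the high Gapdh arrays, and over all 19 alternatives from 0.0233 to 0.139, with a called result in 9. Fewer arrays or degrees of freedom remain under the block and under the left-out arrays; for the trend the cause was not tested. Probe sets called on the whole table ranged from 22 to 71 in 129X1/SvJ (44 reported), 0 to 7 in B6.CAST (4), 10 to 54 over both strains (40), 0 to 0 for the difference, 26 to 192 between strains with noise (126) and 23 to 154 in controls (80). The block changed no other call of a feedback gene, and with it the 129X1/SvJ calls of Zfp36l2 (adjusted p = 0.0596), Socs3 (0.0790) and Egr1 (0.0842) and the B6.CAST call of Ccl2 (0.177) were lost. With crossed replicate numbers in B6.CAST, an alternative chosen after seeing the data, 0 feedback genes and 4 probe sets in all were called.

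Of 896 recomputed changes of feedback genes, 43 turned sign, all in results that had not passed. The cause was not tested. With the authors' scaling alone these were Tob1 (-0.0059) in B6.CAST, the difference of noise effects for Btg1 (0.044) and Ier2 between control strains (-0.014). Zfp36l2, which is not among the 896, also turned sign with it in B6.CAST (0.0094). Array weights gave -0.022 for Dusp2 in 129X1/SvJ, and the B6.CAST arrays alone -0.00065 for Tob1. Without both arrays of high Gapdh ratio, Tob1 in B6.CAST was at -0.15, the differences of noise effects for Dusp1 and Dusp6 were -0.15 and -0.23, Dusp6 was at -0.23 between strains with noise and 0.0091 in controls, and Ier2 at -0.035 in controls. The replicate block gave -0.039 for Ier2 between control strains. With 1 array left out at a time, noise in B6.CAST gave -0.061 to 0.57 for Btg1, -0.15 to 0.16 for Tob1 and -0.089 to 0.30 for Ier2. Outside the 896, it gave -0.18 to 0.17 for Zfp36l2. Dusp2 ranged from -0.15 to 0.45 in 129X1/SvJ and from -0.26 to 0.039 over both strains. The differences of noise effects ranged from -0.10 to 0.27 for Dusp1, -0.21 to 0.37 for Dusp6 and -0.32 to 0.30 for Btg1. Between strains with noise, Dusp6 ranged from -0.22 to 0.35, Btg1 from -0.33 to 0.013 and Tob1 from -0.22 to 0.085. Between control strains, Dusp6 ranged from -0.28 to 0.25, Zfp36 from -0.54 to 0.0014, Btg1 from -0.47 to 0.16, Btg2 from -0.17 to 0.020 and Ier2 from -0.19 to 0.20.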
